A study of Homo sapiens with 2 samples.

Results

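The miR-21 hairpin and the miR-590 hairpin each yield a mature miRNA from either arm, and their 5p arms carry the same seed. The 4 mature miRNAs hsa-miR-21-5p, hsa-miR-21-3p, hsa-miR-590-5p and hsa-miR-590-3p, written without the species prefix hereafter, were chosen by name from a table of 2218 human mature miRNAs, and all 4 were found in it. Small RNA was profiled in K562, a human erythroleukaemia line grown in suspension. The QKI5 library came from cells that received a QKI5-overexpressing lentivirus, and the GFP library from cells that received a GFP lentivirus. QKI5 is a nuclear splice form of Quaking, which binds RNA. Each group had 1 library, so no difference below has a replicate check and none was tested as an effect of QKI5. The QKI5 transcript was not analysed here. In the deposited values the 5p arms stood higher in the QKI5 library, by ratios of 1.67 for miR-21-5p and 1.71 for miR-590-5p, and the 3p arms did not.

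A miRNA guides the silencing machinery to messenger RNAs mainly through its seed, the stretch of bases 2 to 8, so miRNAs with the same seed can share targets. miR-21-5p is one of the best known oncogenic miRNAs and represses the tumour suppressor PDCD4. In most hairpins one arm is loaded into Argonaute as the guide and the other arm, the passenger, is mostly degraded. Mature sequences of miR-21-5p, miR-590-5p and miR-590-3p, 3 of the 4 members, were matched by name in RefSeq. They are shown because the capitals, which mark the seed, are what joins the 5p arms and separates them from miR-590-3p.
miR-21-5p: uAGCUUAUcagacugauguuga
miR-590-5p: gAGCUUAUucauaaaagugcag
miR-590-3p: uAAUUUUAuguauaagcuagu

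The 5p arms were identical at 7 of the 7 seed positions and at 1 of the 14 positions after the seed, aligned from the 5′ end without gaps. Outside the seed they are therefore different molecules, and a full-length read of one differs from the other at many bases. Of the 1946 listed miRNAs with a RefSeq mature sequence, 2 held this seed, miR-21-5p and miR-590-5p. The seed of miR-590-3p was held by 1 of them, miR-590-3p itself. GC content was 36.4% in each of the 5p arms and 19.0% in miR-590-3p.

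In the miR-590 hairpin the capitals below mark the seed of the 5p arm and, further on, its reverse complement auaagcu, which lies within miR-590-3p.
MIR590: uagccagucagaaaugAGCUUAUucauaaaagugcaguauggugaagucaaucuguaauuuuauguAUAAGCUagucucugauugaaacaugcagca
RNAfold, a program that predicts the structure of lowest free energy, paired 7 of the 7 seed bases with that complement. The complement also occurred in 1 other listed miRNA, miR-651-5p. RefSeq places the miR-590 hairpin at chr7:74191198-74191294 on the plus strand of GRCh38.p14 and the miR-21 hairpin at chr17:59841266-59841337, also on the plus strand. The build named in the submitters' processing notes is hg19, so these positions give identity only. In GENCODE release 29 the miR-590 hairpin lay in introns of 3 transcripts of EIF4H, which encodes a translation initiation factor, and in an exon of 0 of them. The miR-21 hairpin lay in an exon of 1 non-coding transcript of VMP1, a gene for a membrane protein of autophagy.

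Levels are given in RPM, that is per 1000000 reads of a library, and were converted to the whole reads behind them. The QKI5 library had 6553945 reads, of which 59.5% were on listed miRNAs, and the GFP library had 23262340 reads, of which 66.3% were. The 6 blood cell markers examined ranged widely, from 52.3 to 10427 RPM in the QKI5 library and from 32.5 to 9441 RPM in the GFP library. In both libraries miR-142-3p and miR-223-3p were the highest of them and miR-144-5p the lowest. Of the 3 red cell markers, miR-451a had 2187 RPM with QKI5, against 2798 RPM with GFP (ratio 0.782). miR-144-3p had a ratio of 0.535 (0.510 to 0.561, a 95% exact counting interval) and miR-144-5p, its partner arm, one of 1.61 (1.41 to 1.83). The 12 markers of other cell types summed to 2978 RPM with QKI5, against 3030 RPM with GFP, most of it miR-145-5p, known from smooth muscle and fibroblasts (2572 RPM with QKI5, 2588 RPM with GFP), and the neural miR-9-5p (332 RPM with QKI5, 378 RPM with GFP). Liver miR-122-5p, muscle miR-206 and the stem cell miRNAs miR-302a-3p and miR-372-3p had 0 reads with QKI5 and 1, 2, 1 and 4 reads with GFP, while miR-124-3p had 1 read with QKI5 and 0 with GFP. At few reads, muscle miR-1 (13 reads with QKI5, 4 with GFP, ratio 11.5, 3.56 to 48.6), muscle miR-133a-3p (6 reads with QKI5, 2 with GFP, ratio 10.6, 1.90 to 108) and fibroblast miR-143-3p (11 reads with QKI5, 7 with GFP, ratio 5.58, 1.97 to 17.0) were higher with QKI5 beyond counting error. Of the epithelial markers, miR-200c-3p had 41.7 RPM with QKI5, against 25.2 RPM with GFP (ratio 1.65, 1.43 to 1.91). The other, miR-141-3p, had 27.8 RPM with QKI5, against 38.2 RPM with GFP (ratio 0.727, 0.616 to 0.853). As deposited, these epithelial markers thus differed in opposite directions, each beyond counting error. All marker ratios here are of the deposited values, and no other scaling was applied to them. The part of all these marker miRNAs in the results below was not tested.

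miR-21-5p was the most abundant member, at 8796 RPM in the QKI5 library, from 57646 reads, against 5257 RPM in the GFP library, from 122289 reads. It ranked at place 10 of all listed miRNAs in the QKI5 library, against place 14 in the GFP library. QKI5 over GFP gave a ratio of 1.67 (95% exact counting interval 1.66 to 1.69). Such intervals cover counting error only, not the spread between cultures, and with no molecular identifiers some reads may be copies of 1 molecule.

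miR-590-5p, the seed relative, reached 3358 RPM in the QKI5 library (22010 reads, place 22), against 1966 RPM in the GFP library (45724 reads, place 32). Its ratio was 1.71 (1.68 to 1.74). Each of the seed-sharing 5p arms was thus higher in the QKI5 library, by a similar factor.

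The 3p arms were scarce in both libraries and, as deposited, did not share this difference. miR-21-3p, the passenger arm of miR-21, reached 84.1 RPM in the QKI5 library (551 reads, place 175), against 97.8 RPM in the GFP library (2276 reads, place 149). Its ratio was 0.859 (0.781 to 0.943), so it was slightly lower with QKI5. miR-590-3p reached 35.7 RPM in the QKI5 library (234 reads, place 226), against 34.9 RPM in the GFP library (812 reads, place 222). Its ratio was 1.02, and the interval of 0.881 to 1.18 includes equal levels. Summed over hairpins, the 3p arms stood at 120 RPM with QKI5, against 133 RPM with GFP, a ratio of 0.902 (0.833 to 0.976), against 1.68 (1.67 to 1.70) for the summed 5p arms.

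**Figure D1:**
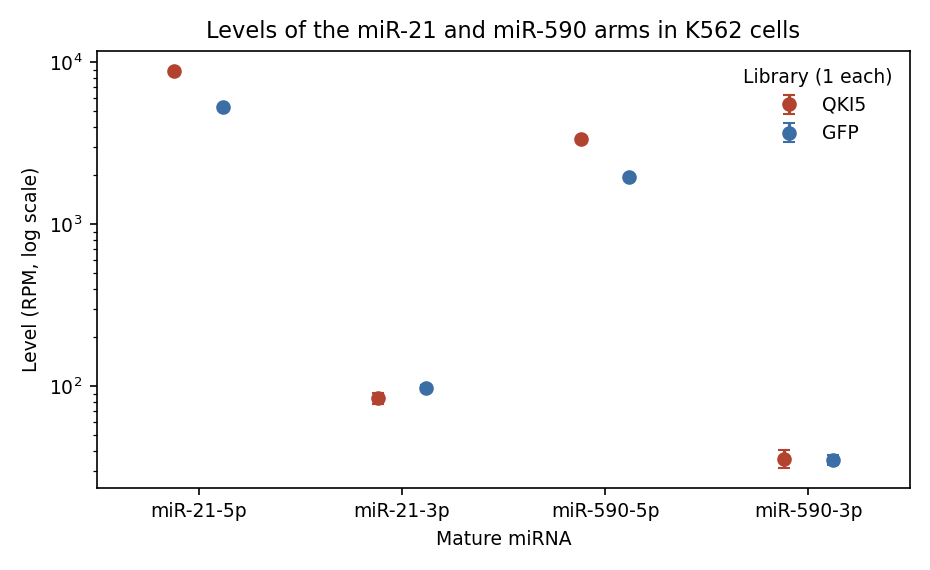
Level of each member in RPM on a log axis, with QKI5 in red left of GFP in blue; points are single libraries and bars are 95% exact counting intervals, often smaller than the point. The 5p arms lie higher in the QKI5 library (8796 and 3358 RPM against 5257 and 1966 RPM), while the 3p arms lie near each other.

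In order of level the members ran miR-21-5p, miR-590-5p, miR-21-3p and miR-590-3p in both libraries. These steps were wide, with 2.62 miR-21-5p reads to 1 miR-590-5p read among the QKI5 reads, against 2.67 among the GFP reads. The neighbours of miR-21-5p in level were miR-223-3p (9840 RPM) above and miR-185-5p (6947 RPM) below in the QKI5 library. In the GFP library they were miR-376a-3p (5648 RPM) above and miR-29b-3p (5059 RPM) below. Each of these 4 differed from miR-21-5p beyond counting error. For miR-590-5p the neighbours were miR-191-5p (3455 RPM) and miR-17-3p (3277 RPM) with QKI5, both beyond counting error. With GFP they were miR-23a-3p (1973 RPM), which could not be told from it by counting, and miR-92a-3p (1817 RPM), which could. The 3p arms sat among miRNAs of nearly equal level. miR-21-3p lay between miR-320a and miR-125b-5p with QKI5 and between miR-374c-3p and miR-1185-2-3p with GFP. miR-590-3p lay between miR-4456 and miR-134-5p with QKI5 and between miR-660-5p and miR-487b-5p with GFP. None of these 8 neighbours differed from its member beyond counting error.

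The makeup of the seed family was nearly the same in both libraries. miR-590-5p supplied 27.6% of the reads of the 5p pair with QKI5 (95% exact binomial interval 27.3% to 27.9%), against 27.2% with GFP (27.0% to 27.4%). The miR-21-5p reads per miR-590-5p read changed by a factor of 0.979 between QKI5 and GFP (0.961 to 0.998). Together the pair held 2.04% of all miRNA reads with QKI5, at 12154 RPM, and 1.09% with GFP, at 7223 RPM. When the miRNAs with a RefSeq sequence were summed by seed, this seed ranked at place 8 of 1606 in the QKI5 library, against place 12 in the GFP library. The miRNAs with such a sequence held 98.3% of the miRNA reads with QKI5 and 98.5% with GFP.

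Set against all miRNAs, ratios of this size were common. On the log2(RPM + 0.153) scale, which understates the ratios of low miRNAs, log2 ratios, QKI5 over GFP, were 0.74 for miR-21-5p, 0.77 for miR-590-5p, -0.22 for miR-21-3p and 0.03 for miR-590-3p. None of the 4 reached 2-fold either way, as 28% of the 400 most abundant miRNAs did. Both 5p arms were at least 1.5-fold higher, and so were 34% of the 400, while 17.5% were at least 1.5-fold lower and, as deposited, neither 3p arm was among those. Of the 200 most abundant miRNAs, 45 had a higher log2 ratio than miR-21-5p, 43 a higher one than miR-590-5p and 120 a higher one than miR-21-3p. miR-590-3p, at place 227 by mean level, lay outside the 200. Of the 400, 227 had a higher log2 ratio than it. The median log2 ratio was 0.06 over the 200 and 0.21 over the 400.

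**Figure D2:**
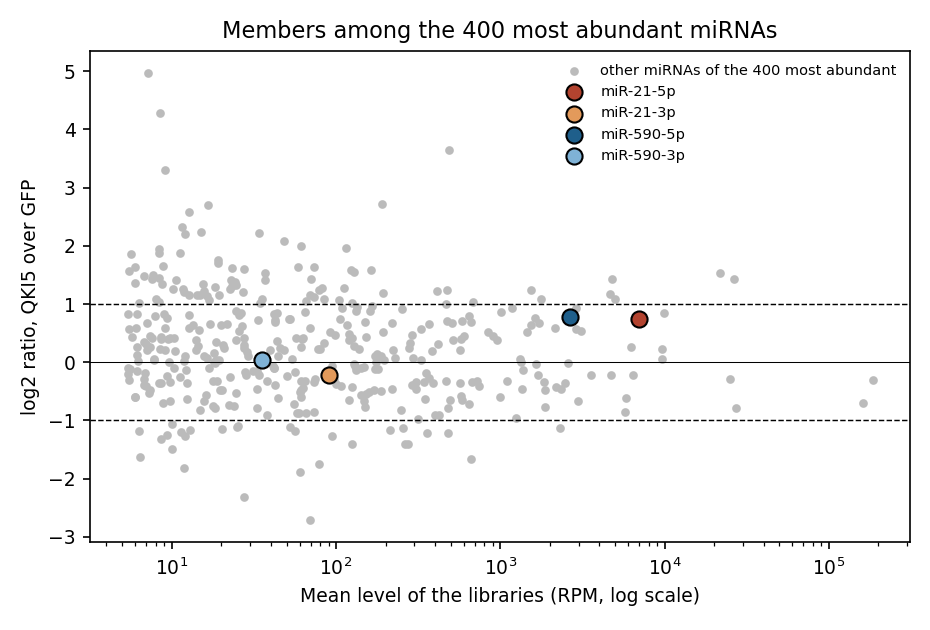
Log2 ratio of QKI5 over GFP against the mean level of the libraries for the 400 most abundant miRNAs (grey) and the 4 members (coloured), with dashed lines at 2-fold. The 5p arms sit at 0.74 and 0.77, under the upper line, and the 3p arms sit near 0, at -0.22 and 0.03.

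These ratios depend on how the libraries are scaled. With edgeR's trimmed mean over all listed miRNAs the median of the 200 moved to -0.52, and the log2 ratios became 0.17 for miR-21-5p, 0.20 for miR-590-5p, -0.79 for miR-21-3p and -0.54 for miR-590-3p. Such a factor shifts all miRNAs alike, so the distance of miR-21-5p and miR-590-5p above the median of the 200 does not depend on it and was 0.68 and 0.72. Quantile normalization can change that distance, and gave 0.44 and 0.62, with 60 of the 200 above miR-21-5p and 48 above miR-590-5p. The 5p arms stayed above 0 and miR-21-3p below 0 under all 5 other scalings compared, whereas the sign of miR-590-3p changed among them. miR-21-3p came closest to 0, at -0.063, when both libraries were scaled to their listed miRNAs. Removing a linear trend on GC content moved miR-21-5p to 1.04 and miR-590-5p to 1.07, just past 2-fold, and miR-590-3p to 0.80. The GC trend was 0.27 log2 units per 10 percentage points over 358 of the 400 miRNAs, those with a sequence (Pearson's r across miRNAs 0.33). miR-590-3p has the lowest GC content of those 358.

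**Figure D3:**
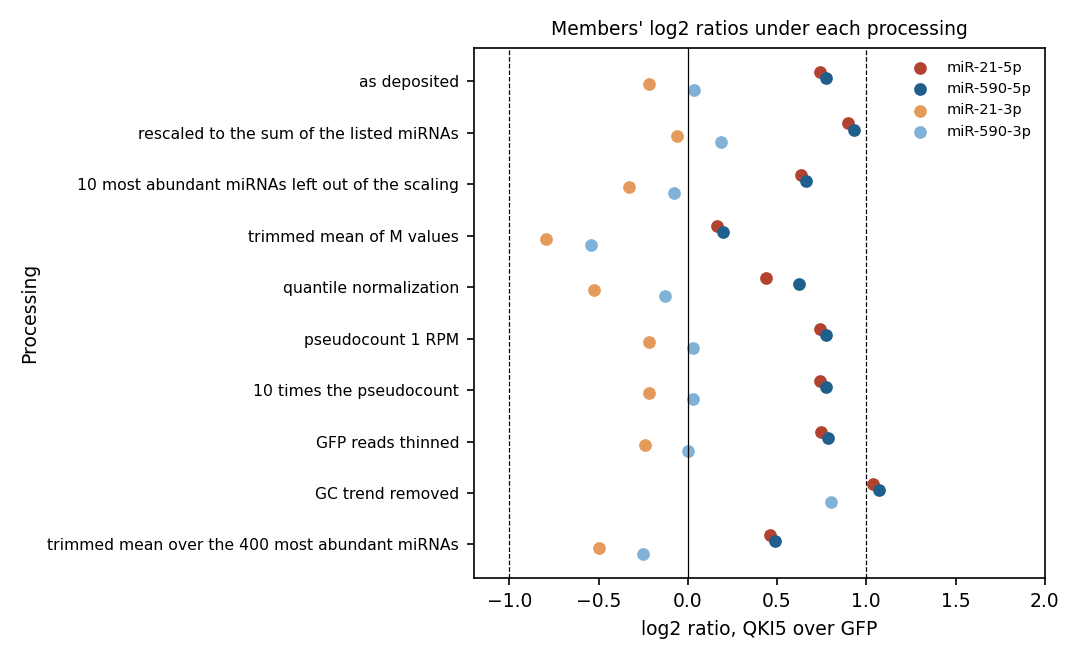
Log2 ratio of QKI5 over GFP of each member (points, 1 per member) as deposited and under each other scaling, pseudocount, depth or composition setting, with dashed lines at 2-fold. The 5p arms stay above 0, between 0.17 and 1.07, and keep to the right of the 3p arms in each row where both arms have a value.

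The balance between arms does not depend on scaling, because both arms are counted in the same library. Each miR-21-3p read was matched by 105 miR-21-5p reads with QKI5 (95% exact interval 96.2 to 114), against 53.7 with GFP (51.5 to 56.0). The arm ratio of miR-21 was thus 1.95 times as large with QKI5 (exact conditional interval 1.77 to 2.14). For miR-590 there were 94.1 reads of the 5p arm to each 3p read with QKI5 (82.7 to 107), against 56.3 with GFP (52.5 to 60.4), which is 1.67 times as large (1.44 to 1.94). The quotient of miR-21 was 1.17 times that of miR-590, with a counting interval (normal approximation on the log scale) of 0.980 to 1.39 that includes 1. The precision is set by the 3p arms, with 234 to 2276 reads. With the GC trend removed from both arms the quotient of miR-590 was 1.20. No such value was computed for miR-21.

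Arm ratios were compared over the 167 hairpins with both arms listed under the same stem name, each arm with a mean of at least 1 RPM. Shifts like those of miR-21 and miR-590 were common among them. The arm ratio differed at least 2-fold either way in 34.7% of the hairpins. Neither miR-21 nor miR-590 reached that size as measured, though the counting interval of miR-21 (1.77 to 2.14) includes 2-fold. The arm ratio was at least 1.5-fold higher with QKI5 in 32.9%, miR-21 and miR-590 included, and at least 1.5-fold lower in 24%. The log2 quotient was 0.96 for miR-21 and 0.74 for miR-590, against a median of 0.18 and quartiles of -0.57 and 0.76 over the 167. Of these hairpins, 33 had a higher quotient than miR-21 and 42 a higher one than miR-590. The more abundant arm was the same in both libraries for 151 of the 167.

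Among 32 hairpins whose 5p arm had at least 10 times the reads of the 3p arm in both libraries, a set chosen after values were seen, the arm ratio was larger with QKI5 in 19. Their median log2 quotient was 0.19. In 3 of them, miR-374a, miR-30d and miR-135b, the quotient was above that of miR-21, at 2.21, 2.44 and 3.39. At the other end it was 0.341 for miR-151a and 0.439 for miR-339. A gain of the abundant 5p arm over its partner was therefore not shared by all hairpins of this kind.

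**Figure D4:**
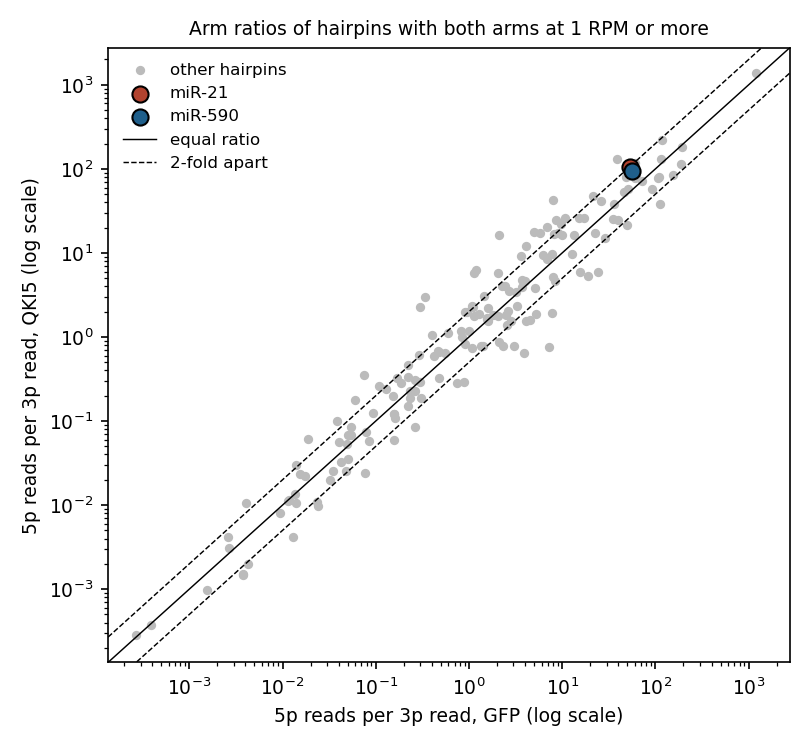
Reads of the 5p arm per read of the 3p arm in the QKI5 library (vertical, log scale) against the GFP library (horizontal, log scale) for 167 hairpins, each a point, with lines for equal ratios and for 2-fold. miR-21 (105 against 53.7) and miR-590 (94.1 against 56.3) lie close together, above the line of equality and inside 2-fold.

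Likeness to the 5p arms was measured as the distance in log2 ratio among the 200 most abundant miRNAs, over these 2 libraries alone. The 3 nearest to miR-21-5p were miR-424-5p, miR-337-5p and miR-590-5p. miR-424-5p had 132 RPM with QKI5, against 78.9 RPM with GFP, a ratio of 1.67 (1.54 to 1.81). miR-337-5p, of the imprinted 14q32 region, had 2034 RPM with QKI5, against 1201 RPM with GFP, a ratio of 1.69 (1.66 to 1.73). The 3 nearest to miR-590-5p were miR-337-5p, miR-301b and miR-21-5p. miR-301b had 816 RPM with QKI5, against 470 RPM with GFP, a ratio of 1.74 (1.68 to 1.79). With a single ratio per miRNA, such nearness is a description of these libraries.

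PDCD4 is repressed by other miRNAs as well, among them those of the miR-183 cluster, and 4 of these were examined. Of the 4, 3 were among the 400 most abundant miRNAs. Of these 3, 2 had a log2 ratio above 0 and 1 below, and 0 reached 2-fold, whereas 20.8% of the 400 were higher and 7.25% lower by that factor or more. Their median log2 ratio was 0.38, against 0.21 over the 400. miR-183-5p had 185 RPM with QKI5, against 114 RPM with GFP, a ratio of 1.62 (1.52 to 1.74) close to that of miR-21-5p. Its cluster partners miR-182-5p and miR-96-5p had ratios of 1.30 (1.20 to 1.40) and 0.947 (0.881 to 1.02). miR-499a-5p, the one outside the 400, had 4 reads with QKI5 and 47 reads with GFP, a ratio of RPM of 0.302 (0.0790 to 0.826). That ratio is past 2-fold lower, but on few reads and with an interval that also holds differences smaller than 2-fold.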

How the data were processed

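Small RNA from 2 K562 cultures was enriched with a miRNA isolation kit, prepared with an Ion Torrent RNA-seq kit and read on an Ion Proton, per the labels' protocols. Bowtie 0.12.3 and hg19 are named in the submitters' processing notes. How multi-mapping reads, mismatches and strand were handled, and with which miRNA annotation, is not given in the sources used. The values the authors deposited are called RPKM but are RPM: in each column 100.0% of values above 0 were whole multiples of a single step within 0.1 of a read, 0.153 RPM for QKI5 and 0.0430 RPM for GFP. Recovered reads are values divided by that step, and library sizes are 1000000 divided by it. Both take the smallest value above 0 of a column as a single read. An exact binomial test of these reads (Benjamini-Hochberg, 0.05), which compares the libraries and not the conditions, called 426 of 1995 detected miRNAs. No dispersion can be estimated with 1 library per group.

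Ratios are plain RPM ratios with exact conditional binomial 95% intervals, and log2 ratios use a pseudocount of 0.153 RPM. A count of 0 allows up to 0.458 RPM (3 reads) with QKI5 and 0.129 RPM with GFP. Named miRNAs are the members, seed relatives, nearest neighbours in ratio (among the 200 most abundant) and level, and listed PDCD4-repressing and marker miRNAs. Another group of that list is not reported here. The members and lists were chosen with earlier results of these data known. Sequences are from RefSeq (GRCh38.p14, 1946 of 2218 names matched) and hosts from GENCODE release 29. Tools were Python 3.11.15, numpy 2.4.6, scipy 1.17.1, pandas 2.3.3, RNAfold 2.7.2 and, for a trimmed-mean scaling, R 4.3.3 with edgeR 4.0.16. Tested on simulated data for QKI5 over GFP (400 miRNAs), the 2-fold rule counted 100.0% of 100 miRNAs with a log2 change of 2, 100.0% of 100 with one of 1.5 and 0.0% of 200 unchanged ones. The simulation held counting error only, with no spread between cultures, and its changes were set past the 2-fold line. It therefore cannot give the error rate of the rule in real cultures.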

Additional observations from a re-analysis of the deposited data

How the results depend on the processing

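Log2 ratios of miR-21-5p, miR-590-5p, miR-21-3p and miR-590-3p, in that order, were as follows where they moved beyond counting error. A value that stayed within it is marked. Scaling both libraries to their listed miRNAs gave 0.90, 0.93 and -0.063 for the first 3. It shifted miR-590-3p alike, to 0.19, which with its fewer reads was within counting error. Leaving out the 10 most abundant miRNAs gave 0.63 and 0.66 for the 5p arms. The 3p arms shifted alike, to -0.33 and -0.076, within counting error at their fewer reads. edgeR's trimmed mean gave 0.17, 0.20, -0.79 and -0.54, and over the 400 most abundant miRNAs, an alternative chosen after seeing the data, 0.46, 0.49, -0.50 and -0.25. Quantile normalization gave 0.44, 0.62 and -0.53 for the first 3. GC trend removal gave 1.04, 1.07 and, for miR-590-3p, 0.80, and an arm quotient of 1.20 for miR-590, an alternative added after seeing the data. Other pseudocounts and 1 thinning of GFP reads left the 4 ratios, both arm quotients and the family share within counting error.

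With QKI5, 30 of the 200 most abundant miRNAs reached 2-fold higher and 14 reached 2-fold lower (68.2% of calls higher). The trimmed mean gave 8 and 54 (12.9%), its form over the 400 gave 13 and 28 (31.7%), and quantile normalization 18 and 20 (47.4%). Leaving out the 10 most abundant gave 23 and 18 (56.1%), and the sum of listed miRNAs 41 and 12 (77.4%). A 1.5-fold threshold gave 59 and 40, the 400 most abundant 83 and 29, and all with a read 475 and 145. The exact binomial test, over all 1995 miRNAs with a read and with no fold threshold, called 426, which is not the same set as the 44 at 2-fold among the 200. Hairpins with a 2-fold arm shift numbered 58 of 167, 32 of 80 with both arms at 10 RPM, 142 of 315 with any reads, and 95 at 1.5-fold. The cause of these changes was not tested. No paired analysis was possible because each group has 1 library, and none could be left out. Depth limits the 3p arms most, with 234 reads for miR-590-3p in the QKI5 library.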
